A study of Homo sapiens with 40 samples.

Results

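The genes described here are 10 relatives of PARP1 in the human poly(ADP-ribose) polymerase family, PARP2, PARP3, PARP4, PARP6, PARP8, PARP9, PARP10, PARP12, PARP14 and PARP16, chosen by name from the 58395 genes of the count table. All 10 passed the filter on low counts and were tested. Their transcripts were measured in HEK293A, an established line of human embryonic kidney cells, in wild-type (WT) cells and in 1 clone (PARP1-KO) in which exons 3 to 5 of PARP1 had been removed with CRISPR/Cas9. The question was whether the relatives stood higher where PARP1 was lost, and whether the drugs changed them.

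Each genotype was left untreated, given 0.1% DMSO (the solvent), given topotecan (Tpc) in the presence of 0.1% DMSO, given 5 µM OL9-119 in 0.1% DMSO, or given Tpc and OL9-119 together in 0.1% DMSO, for 5 to 5.5 h. Topotecan is an anticancer drug that traps topoisomerase 1 on DNA, and OL9-119 inhibits TDP1, an enzyme that removes the trapped topoisomerase. The Tpc dose was 100 nM in WT cells and 50 nM in PARP1-KO cells, so a difference between the genotypes under Tpc cannot be told apart from a difference in dose. A difference between WT and 1 clone also cannot be told apart from what else sets that clone apart. There were 4 libraries in each of the 10 groups, 40 in all. The sample labels call the 4 biological replicates, the methods once call them technical, and p-values measure the spread between these libraries only.

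Proteins of this family take ADP-ribose from NAD+ and attach it to proteins, as chains (poly-ADP-ribosylation) or as single units (mono-ADP-ribosylation). PARP1 and PARP2 are switched on by DNA breaks and build chains there, and PARP3 also answers to breaks but adds single units. PARP9, PARP10, PARP12 and PARP14 belong to the branch of the family known for induction by interferon, and most of the remaining members add single units at other places in the cell.

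In hg38, by the gene spans of GENCODE 44, PARP2 (ENSG00000129484) is at chr14:20343615-20357904 and PARP3 (ENSG00000041880) at chr3:51942345-51948867. PARP9 (ENSG00000138496, chr3:122527924-122564577, minus strand) and PARP14 (ENSG00000173193, chr3:122680839-122730840, plus strand) are close neighbours on chromosome 3. PARP12 (ENSG00000059378) is at chr7:140023749-140062951 on the minus strand, PARP8 (ENSG00000151883) at chr5:50665899-50846519 and PARP4 (ENSG00000102699) at chr13:24420931-24512778. PARP6 (ENSG00000137817, chr15:72241181-72272999) and PARP16 (ENSG00000138617, chr15:65234460-65300618) share chromosome 15. PARP9 shares 139 bp of exon sequence with DTX3L on the opposite strand, PARP10 (ENSG00000178685) shares 324 bp with GRINA on the opposite strand, and PARP6 shares 356 bp with another coding gene on its own strand. Which strand setting gave the deposited counts is not given in the sources used here, so reads in these stretches could belong to either gene.

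The letters TTTCNNTTT form the core of the sequence to which interferon regulatory factors bind. They were searched for on both strands in RefSeq promoter windows (GRCh38.p14) of 300 bases, 250 before to 50 after a gene's start, and were held by 10.5% of 35116 windows. Windows were matched for 8 of the 10 members, which have 11 windows between them. PARP12, PARP9 and PARP14 held the letters, and PARP2, PARP3, PARP6, PARP8 and PARP16 did not. The bases before the start of PARP12 and PARP14 are shown because these members were lower in PARP1-KO cells, and the stretch for PARP9 because that member of the interferon branch held the letters too and did not pass the test. The PARP12 sequence spans chr7:140062952-140063201 (minus strand) and the PARP14 sequence chr3:122680589-122680838 (plus strand). Both are written 5′ to 3′ on the gene's strand, with the matched letters in capitals. In PARP14 the capitals read as the reverse complement because both matches lie on the opposite strand. The PARP9 stretch of 29 bases is chr3:122564323-122564351 on the minus strand. Its match begins 41 bases before the RefSeq start of the window chr3:122564251-122564550. By the GENCODE span given above, which begins further upstream, the stretch lies inside the gene. A further PARP9 window, chr3:122564735-122565034, held no match. The same bases, read on the other strand, are at the start of DTX3L, which runs in the opposite direction.
PARP12: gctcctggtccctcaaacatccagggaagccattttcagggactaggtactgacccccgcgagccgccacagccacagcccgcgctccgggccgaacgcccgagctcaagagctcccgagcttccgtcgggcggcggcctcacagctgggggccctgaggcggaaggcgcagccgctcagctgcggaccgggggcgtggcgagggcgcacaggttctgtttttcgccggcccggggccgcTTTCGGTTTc
PARP14: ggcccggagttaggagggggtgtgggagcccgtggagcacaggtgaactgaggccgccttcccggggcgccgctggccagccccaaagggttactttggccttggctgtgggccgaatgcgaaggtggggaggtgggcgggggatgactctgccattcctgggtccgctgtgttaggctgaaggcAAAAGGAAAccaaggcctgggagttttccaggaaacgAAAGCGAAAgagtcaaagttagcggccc
PARP9: gggcgcaaagTTTCAGTTTcgcttccctg
The PARP12 match begins 10 bases before the start, and those of PARP14 begin 65 and 28 bases before it. A match is a description of the letters only.

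Library totals ran from 3455043 to 20379777 counts, and the median was 9258040 for WT libraries and 11407498.5 for PARP1-KO libraries. Thinned to 3455043 counts each, 8 WT libraries (untreated 1 and 3, DMSO 2 and 3, Tpc 2, OL9-119 2, Tpc + OL9-119 1 and 2) held 15510 to 16922 detected genes, against 18165 to 20619 in the other WT libraries and 17970 to 21571 in PARP1-KO libraries. Calls of members that changed without these 8 libraries are given with their values, and calls of the related gene lists without them as counts. VIM, KRT8, KRT18 and NEFL, known in this line, were read in every library. Of 7 markers of fibroblasts, leukocytes and hepatocytes, 6 never exceeded 16 counts in a library, and COL1A1 lay at 9.10 to 43.0 CPM (counts scaled by library size). Several of these markers moved with genotype, COL1A1 being called lower in PARP1-KO cells in 3 of the 5 treatments. VIM stood at 470.6 to 715.9 CPM in WT and 788.9 to 969.7 CPM in PARP1-KO libraries, and KRT18 at 284.7 to 513.8 CPM in WT and 188.6 to 258.9 CPM in PARP1-KO libraries, both without overlap. Of 6 markers of the line (with NEFM and PAX2), 1 was called higher in each treatment, and 2, 4, 1, 1 and 0 were called lower in untreated cells, DMSO, Tpc, OL9-119 and Tpc + OL9-119. In the same order, 5.97%, 6.67%, 4.17%, 4.94% and 3.56% of all tested genes were called higher. The shares called lower were 5.74%, 5.75%, 4.34%, 4.83% and 3.71%. The part of these markers in the results was not tested. PARP1 itself was read at 737.4 to 887.1 CPM in WT libraries and at 30.4 to 46.6 CPM in PARP1-KO libraries, and the ranges did not overlap. Its log2 fold change was −4.54 in untreated cells and lay between −4.54 and −4.25 over the 5 treatments. The exact two-sided permutation test gave p = 0.02857 in each treatment, the smallest that 4 against 4 libraries allow.

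Per kilobase of exon sequence in untreated WT cells, PARP4, a component of the vault particle, and PARP2 were the most abundant of the 10 members, with levels of 15.1 and 13.97 CPM per kb. They were followed by PARP16, an enzyme of the endoplasmic reticulum membrane, at 8.70 CPM per kb and by PARP6 at 7.26 CPM per kb. PARP9 stood at 4.60, PARP14 at 3.12, PARP8 at 2.66 and PARP12 at 2.28 CPM per kb, and PARP10 and PARP3 were lowest with 0.719 and 0.551 CPM per kb. PARP4 and PARP2, PARP16 and PARP6, PARP14 and PARP8, PARP8 and PARP12, and PARP10 and PARP3 differed by less than the larger of their 2 SDs (n = 4 libraries). PARP1 reached 45.8 CPM per kb in the same libraries, and 135.7 CPM per kb when divided by its longest transcript. With the longest transcript in place of all exons, PARP2 came first of the members with 28.7 CPM per kb. It was ahead of PARP4 with 16.8, PARP6 with 15.2 and PARP16 with 11.9. PARP3 and PARP10 remained the lowest 2 under that length, at 0.713 and 1.24 CPM per kb, and their counts of 1 to 68 and 6 to 88 in a library make their values the least precise.

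**Figure D1:**
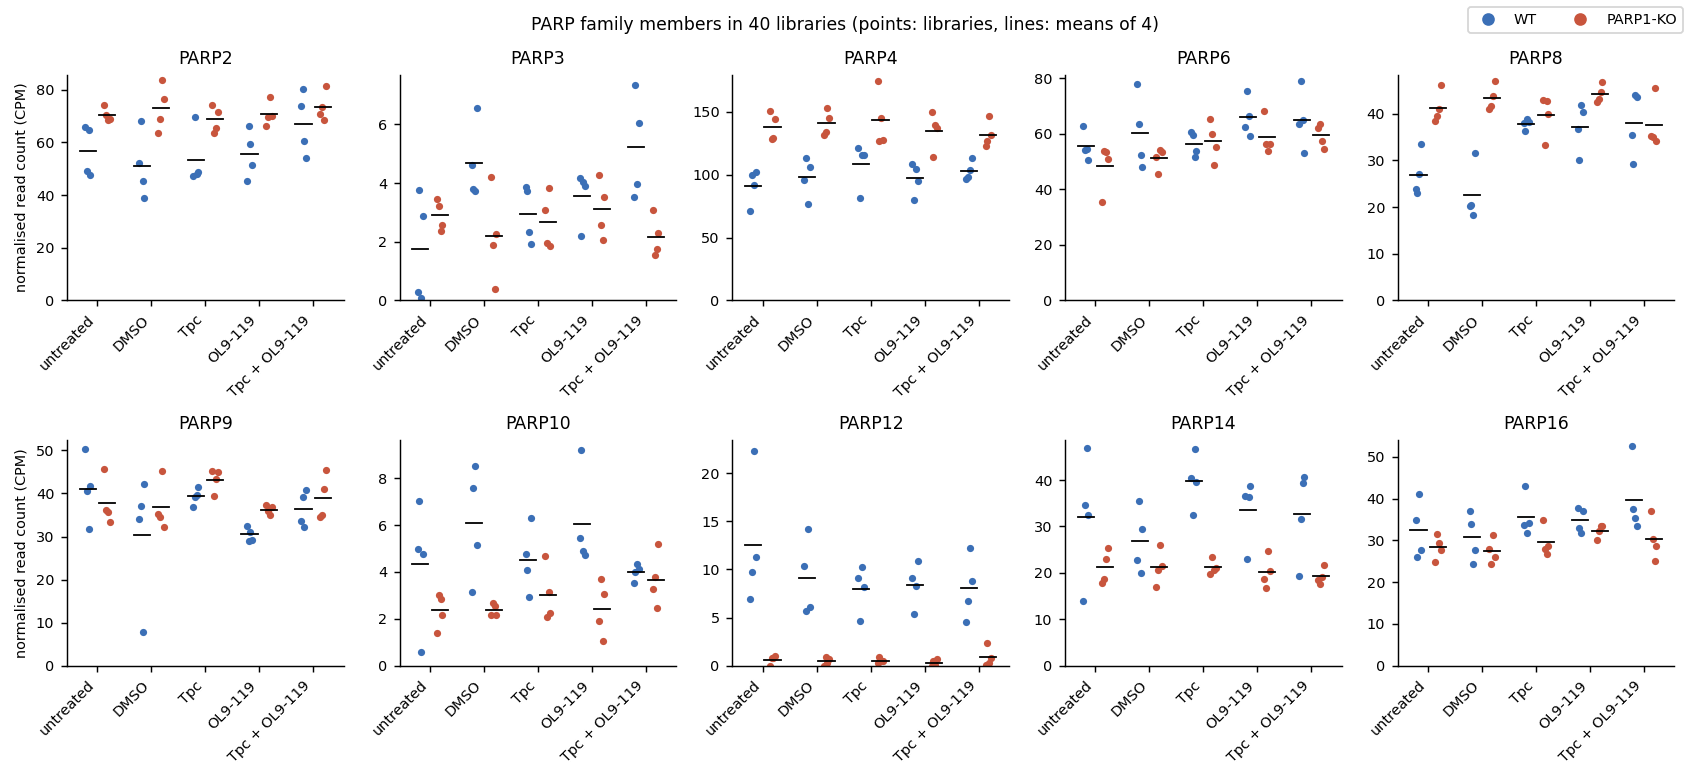
Level of each of the 10 PARP family members in every library, as CPM on a linear axis from 0 (the axes differ between genes), for WT and PARP1-KO libraries under the 5 treatments, each point being 1 library and each line the mean of 4. PARP12 is the member whose 20 PARP1-KO libraries all lie below its 20 WT libraries, and PARP4 lies higher in PARP1-KO cells under each treatment.

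The comparison of PARP1-KO with WT cells under the same treatment asked whether the relatives stood higher where PARP1 was lost. They did not move as a family. PARP12 was lower in PARP1-KO cells under all 5 treatments, by 8.64-fold to 24.5-fold. PARP4 and PARP8 were higher under some treatments, by no more than 1.93-fold, PARP2 was higher in DMSO and PARP14 lower under Tpc. PARP3, PARP6, PARP9, PARP10 and PARP16 did not pass the test in any treatment. A gene was called a differentially expressed gene (DEG) at an adjusted p below 0.01 by edgeR's quasi-likelihood test with Benjamini-Hochberg adjustment over 28922 genes. In untreated cells 2 of the 10 members were called higher and 1 lower, where 5.97% of all tested genes were called higher and 5.74% lower. In DMSO 3 were called higher and 1 lower, beside 6.67% and 5.75% of all genes. Under Tpc 0 were called higher and 2 lower, beside 4.17% and 4.34%, and under OL9-119 1 was called higher and 1 lower, beside 4.94% and 4.83%. Under Tpc + OL9-119 0 were called higher and 1 lower, beside 3.56% and 3.71%. DESeq2 called 14 of the 50 member values and edgeR 12. Over all genes DESeq2 also called more, with 4215, 4358, 3270, 3610 and 2818 genes in untreated cells, DMSO, Tpc, OL9-119 and Tpc + OL9-119 against 3386, 3592, 2463, 2827 and 2103 by edgeR. No test of the members as a group was made. The median log2 fold change of the members lay between −0.21 and −0.07, and that of all genes between 0.04 and 0.19.

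**Figure D2:**
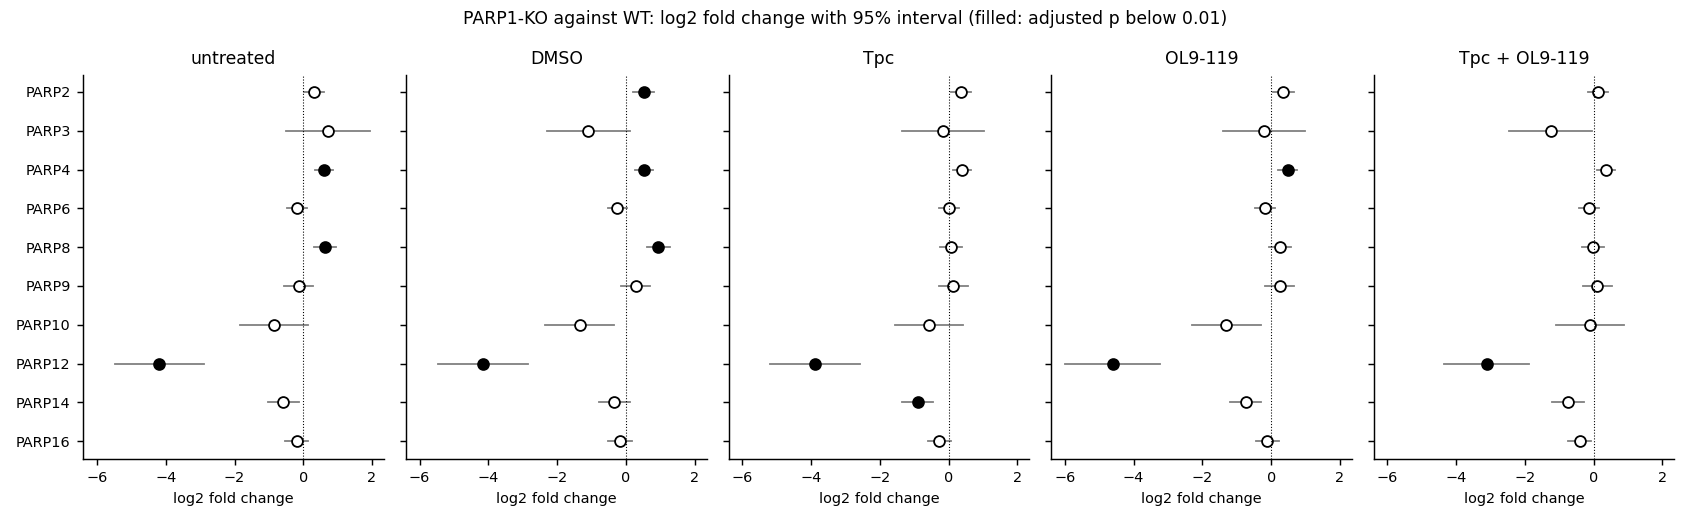
Log2 fold change of PARP1-KO against WT for each member under each of the 5 treatments, with 95% confidence intervals from edgeR, filled where the adjusted p was below 0.01. PARP12 lies between −4.61 and −3.11 in all 5 treatments, and the other members lie far closer to 0.

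PARP12, a mono-ADP-ribosyltransferase with zinc fingers that is induced by interferon, was close to the limit of detection in PARP1-KO cells. In untreated WT cells its level was 6.97, 9.72, 22.3 and 11.2 CPM in replicates 1 to 4, and in untreated PARP1-KO cells 0, 0.753, 0.787 and 0.969 CPM. In DMSO the WT libraries stood at 10.3, 5.70, 14.1 and 6.11 CPM and the PARP1-KO libraries at 0, 0.871, 0.294 and 0.677 CPM. Under Tpc the values were 9.09, 4.62, 10.2 and 8.12 CPM in WT and 0.265, 0.864, 0.493 and 0.464 CPM in PARP1-KO cells. All 20 PARP1-KO libraries lay below all 20 WT libraries. Under OL9-119 the WT libraries stood at 9.15, 5.34, 8.27 and 10.9 CPM and the PARP1-KO libraries at 0, 0.453, 0.115 and 0.668 CPM. Under Tpc + OL9-119 they stood at 4.57, 6.69, 12.2 and 8.79 CPM against 0.0881, 2.38, 0.308 and 0.787 CPM. The counts behind these levels were 32 to 226 in WT and 0 to 32 in PARP1-KO libraries. In the 3 libraries with 0 counts of PARP12, a count of 0 allows a level of up to 0.470 CPM (untreated), 0.308 CPM (DMSO) and 0.357 CPM (OL9-119), taken as 3 counts in each library and covering counting error only.

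The log2 fold change of PARP12 was −4.19 ± 0.64 (SE) in untreated cells with adjusted p = 9.69e-07, an 18.2-fold lower level. In DMSO it was −4.16 ± 0.65 (adjusted p = 1.51e-06), under Tpc −3.89 ± 0.65 (1.09e-05), under OL9-119 −4.61 ± 0.69 (8.29e-07) and under Tpc + OL9-119 −3.11 ± 0.62 (0.000197). The intervals of the 5 values overlap widely, and the smallest fold belongs to the group whose replicate 2 stood at 2.38 CPM. Without that library the value under Tpc + OL9-119 was −4.27. Of the variance of log2 CPM of PARP12, 81.9% lay between the genotypes, 1.85% between treatments and 16.2% between replicates. PARP12 was called under every alternative and with each library left out. In a bulk sample, fewer cells expressing a gene and less RNA per cell cannot be told apart. Within 500 kb of PARP12 lay 8 tested genes, including TBXAS1 and KDM7A on either side. In DMSO 0 of them were called by edgeR, the lowest adjusted p being 0.147 (MKRN1). Their median log2 fold change was 0.14. Of all genes in DMSO, 6.67% were called higher and 5.75% lower, so few calls would be met among 8 genes in any case.

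PARP14, which reads and adds ADP-ribose and carries macrodomains that bind it, was the other member of the interferon branch with a call. Under Tpc it stood at 40.4, 32.4, 46.7 and 39.6 CPM in WT replicates 1 to 4 and at 19.9, 23.5, 20.6 and 21.0 CPM in PARP1-KO replicates. These groups did not overlap, and the log2 fold change was −0.90 ± 0.23 (adjusted p = 0.00306). Without PARP1-KO Tpc replicate 1 the adjusted p was 0.0107, and without WT Tpc replicate 3 it was 0.01697. The differences were −0.58 in untreated cells (adjusted p = 0.0624), −0.34 in DMSO (0.295), −0.75 under OL9-119 (0.0160) and −0.75 under Tpc + OL9-119 (0.0201). In the untreated WT group the libraries ran from 13.9 to 47.0 CPM, in DMSO from 19.9 to 35.6, under OL9-119 from 22.9 to 38.8 and under Tpc + OL9-119 from 19.3 to 40.6. The lowest WT library in each of these 4 groups was among the 8 with few detected genes. In DMSO the highest WT library, replicate 2, was among those 8 too. Without those 8 libraries PARP14 was called lower also in untreated cells (−0.66, adjusted p = 0.00200), under OL9-119 (−0.90, 1.45e-06) and under Tpc + OL9-119 (−1.06, 2.43e-06). When each of the 8 libraries compared in these 3 treatments was left out in turn, 1 omission in each gave a call. It was that of the lowest WT library. The adjusted p was 0.00304 without WT untreated replicate 1, 0.00548 without WT OL9-119 replicate 2 and 0.00379 without WT Tpc + OL9-119 replicate 1. Over the other omissions it reached 0.3585, 0.0685 and 0.0875 in the same order. An offset for gene length and GC content made the differences of PARP14 larger, at −0.94 in untreated cells (adjusted p = 0.000609), −0.93 under OL9-119 (0.00104) and −0.88 under Tpc + OL9-119 (0.00203), all called, and at −0.68 in DMSO (0.0130), not called. Over all genes the offset also moved the calls downward. In the same order, 70.6%, 59.8%, 74.3% and 72.7% of all genes called were then lower, against 49%, 49.5%, 51% and 46.3% in the reported test. The number of detected genes as a covariate gave calls of PARP14 under OL9-119 (−0.80, 0.00662) and Tpc + OL9-119 (−0.90, 0.00580). The 20 PARP1-KO libraries, at 16.8 to 25.9 CPM, all lay below the WT median of 35.1 CPM.

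PARP9, the partner of the ubiquitin ligase DTX3L, lay at 7.91 to 50.3 CPM in WT and at 32.3 to 45.8 CPM in PARP1-KO libraries. The lowest value was that of WT DMSO replicate 3, one of the 8 libraries with few detected genes, whose group mates stood at 34.04 to 42.1 CPM. Its log2 fold changes lay between −0.13 and 0.28, with adjusted p between 0.356 and 0.820. DTX3L, which shares the PARP9 promoter region, was not called either, with log2 fold changes of −0.63 to −0.01. PARP10, which modifies substrates with single ADP-ribose units, stood at 0.593 to 9.21 CPM in WT and at 1.03 to 5.20 CPM in PARP1-KO cells. In DMSO its WT libraries lay at 3.13 to 8.51 CPM and its PARP1-KO libraries at 2.15 to 2.67 CPM. These groups did not overlap, but the log2 fold change of −1.34 ± 0.50 had adjusted p = 0.0488. DESeq2 called it (−1.36, adjusted p = 0.00952), and without the 8 libraries it was −0.77 (adjusted p = 0.231). Counts of 6 to 88 in a library limit what can be told for PARP10.

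PARP4 was the member most regularly higher in PARP1-KO cells. In untreated cells its level was 71.3, 100.1, 91.8 and 102.2 CPM in WT replicates 1 to 4 and 150.5, 128.5, 129.0 and 144.2 CPM in PARP1-KO replicates. In DMSO the WT libraries stood at 96.2, 113.5, 76.7 and 106.3 CPM and the PARP1-KO libraries at 131.3, 133.8, 152.7 and 145.1 CPM. Under OL9-119 the values were 108.5, 79.6, 104.9 and 95.1 CPM in WT and 150.2, 113.9, 139.2 and 137.2 CPM in PARP1-KO cells. In all 5 treatments every PARP1-KO library lay above every WT library of that treatment, and 19 of the 20 PARP1-KO libraries lay above the highest of the 20 WT libraries. The log2 fold changes called were 0.60 ± 0.13 in untreated cells (adjusted p = 0.000494), 0.52 ± 0.13 in DMSO (0.00241) and 0.48 ± 0.13 under OL9-119 (0.00688). Under Tpc the difference was 0.40 (adjusted p = 0.0305) and under Tpc + OL9-119 0.36 (0.0622), and neither was called by edgeR. DESeq2 called the difference under Tpc (0.42, adjusted p = 0.00760). These correspond to levels 1.28-fold to 1.51-fold as high.

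The calls of PARP4 were sensitive to how the counts were scaled. The offset for gene length and GC content, which removes the dependence of the counts on both, set the median log2 fold change of all genes to 0, from 0.17 in untreated cells and 0.19 in DMSO. The share of DEGs that were higher in PARP1-KO cells then moved from 51.0% to 29.4% in untreated cells, from 53.7% to 27.3% in DMSO, from 49.0% to 39.0% under Tpc, from 50.5% to 40.2% under OL9-119 and from 49.0% to 25.7% under Tpc + OL9-119. With it PARP4 was 0.35 in untreated cells (adjusted p = 0.0313), 0.22 in DMSO (0.195) and 0.33 under OL9-119 (0.0536), no longer called. With the number of detected genes as a covariate the value in DMSO was 0.45 (adjusted p = 0.0184). In DMSO PARP4 was also not called without PARP1-KO replicate 3 or 4 (adjusted p = 0.0129 and 0.0109) or WT replicate 3 (0.0213). Under OL9-119 the call was lost without PARP1-KO replicate 1, 3 or 4 (0.0415, 0.0192 and 0.0199) or WT replicate 2 or 4 (0.0515 and 0.0190). The log2 fold change stayed between 0.39 and 0.66 over all these single omissions in the 3 treatments.

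PARP8, a mono-ADP-ribosyltransferase, was called higher in PARP1-KO cells when untreated or in DMSO and was not called under the drugs. In DMSO its level was 20.3, 20.5, 18.3 and 31.6 CPM in WT replicates 1 to 4 and 41.1, 41.7, 43.8 and 47.0 CPM in PARP1-KO replicates. In untreated cells the WT libraries stood at 23.9, 23.0, 27.1 and 33.6 CPM and the PARP1-KO libraries at 38.4, 39.6, 41.1 and 46.3 CPM. The genotypes did not overlap in either condition. The log2 fold change was 0.94 ± 0.16 in DMSO (adjusted p = 9.39e-06), a level 1.93-fold as high, and 0.63 ± 0.16 in untreated cells (0.00301). Under Tpc it was 0.07 (95% interval −0.25 to 0.39), under OL9-119 0.25 (−0.07 to 0.57) and under Tpc + OL9-119 −0.02 (−0.34 to 0.31), none of them called. The length and GC offset gave 0.51 in DMSO, which was still called (adjusted p = 0.00750), and 0.20 in untreated cells, which was not (0.352), and turned the uncalled values under Tpc and OL9-119 to −0.24 and −0.08. The untreated call was also lost without PARP1-KO replicate 4 (adjusted p = 0.0177), WT replicate 1 (0.0152) or WT replicate 2 (0.0156), and with the number of detected genes as a covariate (0.50, 0.0221).

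PARP2, the nearest relative of PARP1 in function and also activated by DNA breaks, differed little between the genotypes. In DMSO it stood at 52.3, 67.9, 45.2 and 38.8 CPM in WT replicates 1 to 4 and at 63.4, 68.8, 83.5 and 76.5 CPM in PARP1-KO replicates. These groups overlapped, and the log2 fold change of 0.51 ± 0.15 had adjusted p = 0.00964, close to the threshold. With RLE scaling in place of TMM the adjusted p was 0.0128, and with the length and GC offset the value was 0.20 (0.455). It was larger with the number of detected genes as a covariate (0.81, adjusted p = 1.24e-05) and without the 8 WT libraries with few detected genes (0.65, 9.54e-05). The call was also lost without PARP1-KO replicate 2, 3 or 4 (0.0152, 0.0454 and 0.0312) and without WT replicate 1, 3 or 4 (0.0185, 0.0358 and 0.0604). In untreated cells the WT libraries lay at 47.7 to 65.8 CPM and the PARP1-KO libraries at 68.4 to 74.0 CPM, without overlap, but the log2 fold change of 0.31 (95% interval 0.01 to 0.61) was not called (adjusted p = 0.151). Under Tpc it was 0.36, under OL9-119 0.35 and under Tpc + OL9-119 0.12, not called either, and the offset turned the last to −0.07. Without those 8 libraries PARP2 was called higher also in untreated cells (0.54, adjusted p = 0.00143), under Tpc (0.50, 0.000588) and under OL9-119 (0.44, 0.00243), and the covariate gave calls in the same 3 treatments (0.54, 0.46 and 0.47). All 20 PARP1-KO libraries lay above the WT median of 53.2 CPM, and 2 of them lay above the highest WT library.

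PARP3, which like PARP2 answers to DNA breaks, was too scarce for a close estimate. It lay at 0.0988 to 7.34 CPM in WT and at 0.392 to 4.29 CPM in PARP1-KO libraries, and its log2 fold changes ran from −1.26 to 0.73 with standard errors near 0.6. Under Tpc + OL9-119 the 4 WT libraries, at 3.52 to 7.34 CPM, lay above the 4 PARP1-KO libraries, at 1.56 to 3.08 CPM, with adjusted p = 0.172. PARP6, another enzyme that adds single units, lay at 48.1 to 79.2 CPM in WT and at 35.3 to 68.2 CPM in PARP1-KO libraries, with log2 fold changes between −0.25 and 0.02. PARP16 lay at 24.5 to 52.6 CPM in WT and 24.4 to 37.0 CPM in PARP1-KO cells, with log2 fold changes between −0.40 and −0.11. None of the 3 genes was called, and the 95% intervals for PARP6 reached from −0.54 to 0.31 over the 5 treatments.

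Summed over the 10 members per kilobase of exon sequence, the family stood at 59.0 ± 3.53 CPM per kb (SD, n = 4) in untreated WT and at 65.9 ± 1.01 CPM per kb in untreated PARP1-KO cells. In DMSO the sums were 57.4 ± 8.11 and 67.0 ± 5.28 CPM per kb, and under Tpc + OL9-119 they were 67.6 ± 2.63 and 67.2 ± 1.26 CPM per kb. PARP1 over the same scale was 45.8 ± 2.48 CPM per kb in untreated WT and 1.99 ± 0.270 CPM per kb in untreated PARP1-KO cells. This scale depends on the length used. Divided by its longest transcript, PARP1 was 135.7 CPM per kb in untreated WT and 5.88 CPM per kb in untreated PARP1-KO cells. The sum of the members was not taken on that length, so the 2 should not be ranked. The sum is dominated by PARP4 and PARP2 and no test was made of it. When the 10 groups were put in order of their mean, neighbours in that order overlapped almost everywhere. The exceptions were PARP4, where the lowest PARP1-KO group (Tpc + OL9-119) lay clear of the highest WT group (Tpc), PARP12, where the lowest WT group (Tpc) lay clear of the highest PARP1-KO group (Tpc + OL9-119), and PARP9, where PARP1-KO cells under OL9-119 lay clear of WT cells under OL9-119.

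The solvent, each drug and the 2 drugs together were then compared with untreated cells within each genotype, which asked whether the members respond to them. The untreated cells held no DMSO, while every drug group held 0.1%. None of the 10 members was called by edgeR in any of the 8 comparisons. In WT cells 0% of all genes were called in DMSO, 0.857% under Tpc, 1.28% under OL9-119 and 4.07% under Tpc + OL9-119. In PARP1-KO cells the shares were 0% in DMSO, 0.0138% under Tpc, 0.00346% under OL9-119 and 0% under Tpc + OL9-119. At an unadjusted p below 0.05, 2 members passed in WT cells in DMSO, 1 under Tpc, 2 under OL9-119 and 2 under Tpc + OL9-119, where 10.8%, 15.6%, 16.1% and 21.7% of all genes did. In PARP1-KO cells 0, 0, 0 and 1 passed, where 1.86%, 5.92%, 3.22% and 4.29% of all genes did. DESeq2 called 1 member over the 4 comparisons in WT cells and 0 in PARP1-KO cells. The comparisons within a genotype share their 4 untreated libraries.

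The member nearest to a drug response was PARP8 in WT cells. Untreated WT libraries stood at 23.9, 23.0, 27.1 and 33.6 CPM, and those given Tpc at 38.0, 36.4, 39.0 and 38.2 CPM. Under OL9-119 they stood at 36.7, 30.1, 41.9 and 40.4 CPM, and under Tpc + OL9-119 at 35.5, 29.3, 44.1 and 43.7 CPM. The Tpc group lay above the untreated group without overlap, and the other two overlapped with it. The log2 fold change was 0.50 ± 0.16 under Tpc (adjusted p = 0.0957), 0.47 ± 0.16 under OL9-119 (0.100) and 0.50 ± 0.16 under Tpc + OL9-119 (0.0418). With the 4 DMSO libraries as the comparator, which hold the same solvent as the drugs, the values were 0.75 (adjusted p = 0.00345), 0.73 (0.00471) and 0.75 (0.00157), and all 3 were called. DESeq2 against untreated cells called Tpc + OL9-119 (0.50, adjusted p = 0.00807). PARP8 in DMSO was −0.25 against untreated cells (0.587), so the choice of comparator moved the value by that amount. The length and GC offset gave 0.34 under Tpc, 0.29 under OL9-119 and 0.24 under Tpc + OL9-119 against untreated cells, none of them called.

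In PARP1-KO cells PARP8 did not move that way. The libraries lay at 38.4 to 46.3 CPM untreated, 33.3 to 43.0 CPM under Tpc, 42.6 to 46.9 CPM under OL9-119 and 34.2 to 45.5 CPM under Tpc + OL9-119. The log2 fold changes were −0.06 (95% interval −0.38 to 0.26), 0.10 (−0.22 to 0.42) and −0.14 (−0.46 to 0.18). The difference between the 2 genotypes' responses, PARP1-KO minus WT, was −0.56 ± 0.23 for Tpc (adjusted p = 0.607), −0.37 ± 0.23 for OL9-119 (0.786) and −0.64 ± 0.23 for Tpc + OL9-119 (0.243), and none was called. Over the alternatives other than single omissions, the DMSO comparator among them, it ran from −0.88 to −0.44, −0.69 to −0.28 and −0.96 to −0.35. The lowest adjusted p among them was 0.0858, 0.446 and 0.0174, and again none was called. Of the variance of log2 CPM of PARP8, 45.1% lay between treatments within a genotype, 30.1% between the genotypes and 24.8% between replicates.

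**Figure D3:**
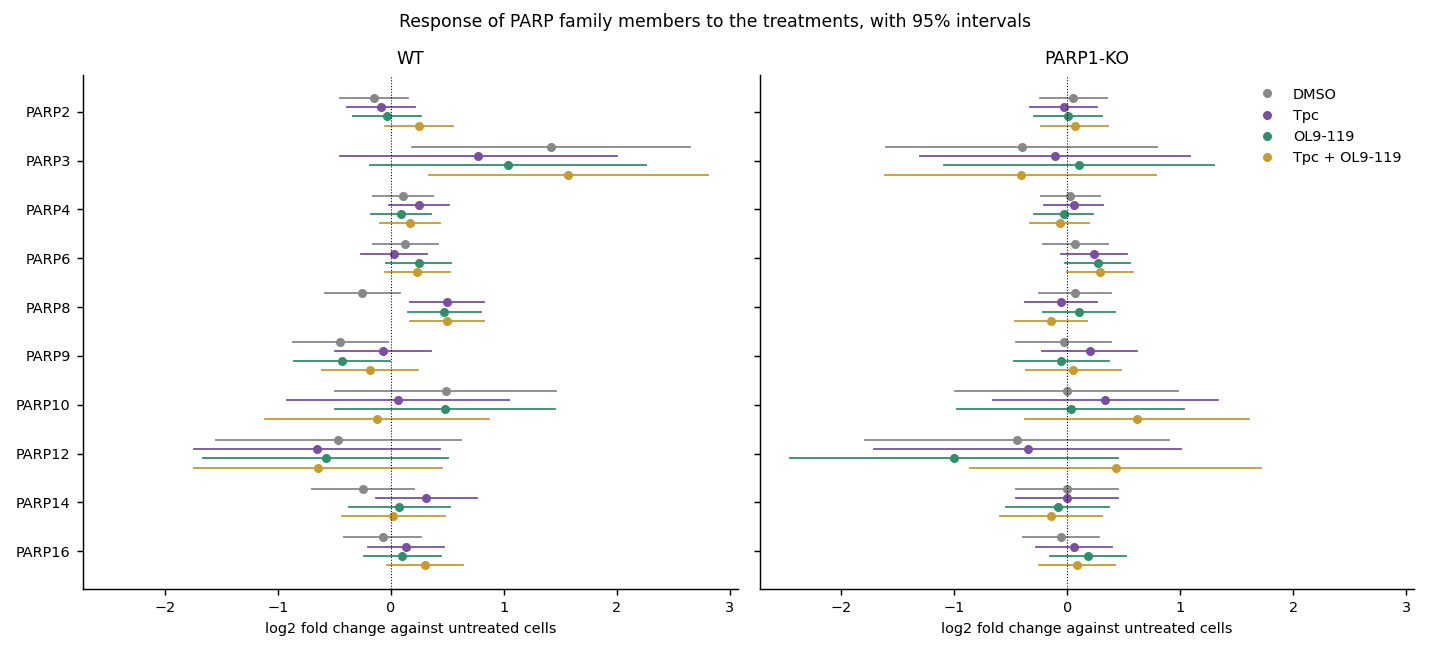
Log2 fold change of each member under DMSO, Tpc, OL9-119 and Tpc + OL9-119 against untreated cells of the same genotype, with 95% confidence intervals, WT and PARP1-KO side by side. No member passed an adjusted p of 0.01, and PARP8 in WT cells sits near 0.5 under the 3 drug treatments while in PARP1-KO cells it sits near 0.

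Among the other members, PARP3, PARP9 and PARP6 had an unadjusted p below 0.05 in a treatment against untreated cells, and none of these values was called. PARP3 in WT cells was 1.41 ± 0.61 higher on the log2 scale in DMSO (adjusted p = 0.393) and 1.57 ± 0.62 under Tpc + OL9-119 (0.104). The untreated WT libraries of PARP3 held 4, 42, 1 and 23 counts, and the 2 lowest are among the 8 libraries with few detected genes. PARP9 in WT cells gave −0.45 ± 0.21 in DMSO (adjusted p = 0.441) and −0.43 ± 0.21 under OL9-119 (0.298). PARP6 in PARP1-KO cells under Tpc + OL9-119 lay at 54.6 to 63.7 CPM against 35.3 to 53.9 CPM untreated, without overlap, and the log2 fold change of 0.29 ± 0.14 had an adjusted p of 1. Untreated PARP1-KO replicate 1 supplied the lowest of these PARP6 values.

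The addition of OL9-119 to Tpc was compared with Tpc alone in each genotype. Against Tpc alone, 0 members were called in WT cells, where 0.18% of all genes were, and 0 in PARP1-KO cells, where 0% were. At an unadjusted p below 0.05, 1 member passed in WT and 0 in PARP1-KO cells, with 10.8% and 4.10% of all genes, and DESeq2 called 0 in both. The member in WT cells was PARP2, at 47.2, 69.8, 48.0 and 48.7 CPM under Tpc and 73.6, 80.3, 60.5 and 54.1 CPM under Tpc + OL9-119. These groups overlapped, and the log2 fold change was 0.33 ± 0.15 (adjusted p = 0.426). In PARP1-KO cells the same contrast for PARP2 was 0.10 (95% interval −0.20 to 0.40). For the genotype difference of the responses, 0 members were called for Tpc, OL9-119 or Tpc + OL9-119 by edgeR or DESeq2, beside 0.1%, 0.0657% and 0.27% of all genes, and 1, 0 and 2 passed an unadjusted p below 0.05, beside 7.41%, 6.80% and 11.8% of all genes. The 2 under Tpc + OL9-119 were PARP8, given above, and PARP3, with −1.99 ± 0.86 (adjusted p = 0.346).

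Genes that work with the family were followed as fixed lists. Of 6 further PARP family genes (TNKS, TNKS2, TIPARP, PARP11, PARP15 and ZC3HAV1), 1 was called higher in PARP1-KO cells in every treatment. Under OL9-119 ZC3HAV1 made it 2, and 0 were called lower. Of all genes, 5.97%, 6.67%, 4.17%, 4.94% and 3.56% were called higher in untreated cells, DMSO, Tpc, OL9-119 and Tpc + OL9-119. The median log2 fold changes of the 6 were 0.565, 0.433, 0.175, 0.578 and 0.405 in the same order. Without the 8 WT libraries with few detected genes, 2 were called higher under Tpc + OL9-119 as well. Over all genes 2676 DEGs were then called in that treatment, against 2103 in the reported test. The gene called in every treatment was TIPARP, a mono-ADP-ribosyltransferase induced by the aryl hydrocarbon receptor. It stood at 21.0 to 82.0 CPM in WT and at 105 to 213.3 CPM in PARP1-KO libraries, with log2 fold changes of 1.11 in untreated cells (adjusted p = 5.30e-06), 1.35 in DMSO (1.10e-07), 1.38 under Tpc (1.07e-07), 1.17 under OL9-119 (3.02e-06) and 1.37 under Tpc + OL9-119 (2.21e-07). All 20 PARP1-KO libraries of TIPARP lay above all 20 WT libraries, the reverse of PARP12, and TIPARP was called in each treatment under all 19 alternatives run, with values of at least 0.84. ZC3HAV1, an antiviral relative that lacks the catalytic activity, was 0.82 higher under OL9-119 (7.45e-05), where the WT libraries had fallen by 0.77 against untreated WT (0.00110). That fall was not called without the 8 WT libraries (−0.50, adjusted p = 0.0641), nor without WT untreated replicate 1 (0.0149) or WT OL9-119 replicate 2 (0.0103) alone.

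Of 12 genes that help, read or remove ADP-ribosylation, 0 were called higher in any treatment in the reported test. In untreated cells, DMSO, Tpc, OL9-119 and Tpc + OL9-119, 3, 2, 2, 3 and 2 were called lower. Of all genes, 5.74%, 5.75%, 4.34%, 4.83% and 3.71% were called lower. The median log2 fold changes of the 12 were −0.005, −0.19, −0.08, −0.33 and −0.22. Without the 8 WT libraries 2, 3, 3, 4 and 3 were called lower, and 1 was called higher in DMSO. Over all genes 3850, 4208, 4442, 4734 and 2676 DEGs were called without them. The reported test called 3386, 3592, 2463, 2827 and 2103. HPF1, which joins PARP1 and PARP2 to direct the modification to serine, was lower in all 5, with log2 fold changes of −1.17, −1.05, −0.80, −0.86 and −1.26 and adjusted p between 1.34e-06 and 0.00152. HPF1 stood at 35.0 to 84.5 CPM in WT and at 17.6 to 30.3 CPM in PARP1-KO libraries, without overlap, and its only lost call was that under Tpc without WT Tpc replicate 2 (−0.70, adjusted p = 0.0131). MACROD1, a hydrolase that removes ADP-ribose, was lower in 4 treatments, and CHD1L, a chromatin remodeler that binds the chains, in 3. MACROD1 was called under 14, 10, 11 and 19 of 19 alternatives in untreated cells, DMSO, Tpc and OL9-119, and CHD1L under 16, 12 and 14 of 19 in untreated cells, OL9-119 and Tpc + OL9-119. PARG, the main enzyme that degrades the chains, was not called in any treatment. Of 21 interferon-responsive genes, 4, 5, 4, 6 and 5 were called lower and 0, 1, 0, 2 and 1 higher in the same order of treatments. These stand beside the shares of all genes called lower and higher given above. OAS3 and TAP1 were lower in all 5 treatments, with OAS3 at −1.42 in untreated cells and −2.05 under Tpc. ISG15 and IFIT2 lay the other way. ISG15 had a median of 5.21 CPM over WT and 13.3 CPM over PARP1-KO libraries, and IFIT2 4.92 and 10.8 CPM. For both, all 20 PARP1-KO libraries lay above the WT median. The list's median log2 fold change was −0.32 in untreated cells, −0.47 in DMSO, −0.52 under Tpc, −0.31 under OL9-119 and −0.53 under Tpc + OL9-119, against 0.17, 0.19, 0.07, 0.04 and 0.14 for all genes. Over the alternatives other than leaving out single libraries, 4 to 7 of the 21 were called lower in untreated cells, 3 to 9 in DMSO, 4 to 8 under Tpc, 5 to 8 under OL9-119 and 4 to 7 under Tpc + OL9-119, and 1 or 2 were called higher under OL9-119 and 0 to 2 in each other treatment. The 9 in DMSO came with the length and GC offset, under which 72.7% of all DEGs in DMSO were lower. Without the 8 WT libraries 2 of the 21 were called higher in each treatment, and 7, 6, 8, 7 and 5 were called lower in the same order. DEGs over all genes were also more numerous without these libraries, as given above. The interferon-branch members PARP9, PARP10, PARP12 and PARP14 are not in that list.

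Within the family, the levels of the members over the 40 libraries, after removal of each genotype's mean, moved together only in part. The highest Pearson correlation between members was that of PARP4 with PARP14 (r = 0.617), followed by PARP2 with PARP16 (r = 0.547), and the lowest was PARP10 with PARP14 (r = −0.304). Among 12161 genes, the 3 whose levels were most like PARP8 were SLC7A1 (r = 0.851), RALGAPB (0.843) and UTP25 (0.83). For PARP4 they were PIK3R4 (0.826), POLQ (0.822) and EXOC5 (0.812), for PARP14 CIP2A (0.858), ETV5 (0.799) and ZKSCAN2 (0.75), and for PARP2 PRIM1 (0.764), DYNC2LI1 (0.757) and RFC4 (0.717). PARP12, with the fewest counts of the 5, had lower values, with XRCC3 at 0.604. These correlations describe 40 libraries that share depth and detected genes, and carry no test.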

How the data were processed

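Poly(A) libraries of 40 HEK293A samples were sequenced by the authors as paired 100-base reads, aligned to hg38 (Ensembl 93 annotation) and counted per gene with STAR (version 2.7.8 in the submitters' processing notes). The deposited values are raw counts, not normalized. The strand column kept is not given in the sources used here. Gene positions, lengths and GC content came from GENCODE 44, matched by identifier for 57754 of 58395 genes. Genes with at least 10 counts in all (28922) were tested with edgeR 4.0.16 in R 4.3.3 (TMM, quasi-likelihood F-test, 1 fit over 10 groups, 18 comparisons, adjusted p below 0.01). SE was the absolute log2 fold change over the square root of F. CPM used TMM library sizes. The fit was tested on simulated data with known changes. DESeq2 1.42.0 was an alternative.

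Samples were grouped by genotype and treatment in the labels, which name the clone both a knockout and a knockdown. The members and lists were chosen with earlier results of these data known. The named genes were the 10 members, called list genes, and for the 5 members with a call the 3 genes most like each in r. Leaving out 8 WT libraries with fewer than 17000 detected genes, and detected genes as a covariate, were chosen after seeing the data. Other alternatives were RLE scaling, other filters, fits of only the libraries compared, a replicate block, the library name prefix, length and GC offsets, a DMSO comparator, a 0.05 threshold and each library left out. No 2 libraries were duplicates.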

Additional observations from a re-analysis of the deposited data

Results flagged for a closer look

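Among the 100 groups of 4 libraries (10 members in 10 groups), 9 held a library whose gap to the nearest of the others exceeded Dixon's 95% critical value as a share of the group's range, and chance alone gives about 1 in 20 groups. In WT cells under Tpc, replicate 2 stood apart for PARP2 (69.8 CPM, the others 47.2 to 48.7) and for PARP4 (81.8 CPM, the others 115.9 to 121.4). In WT cells under OL9-119, replicate 2 stood apart for PARP3 (2.20 CPM, the others 3.89 to 4.17), PARP10 (9.21 CPM, the others 4.71 to 5.45) and PARP14 (22.9 CPM, the others 36.3 to 38.8). These 2 libraries are among the 8 WT libraries with few detected genes, and the part of this in the 5 values was not tested. In WT cells in DMSO, PARP8 was high in replicate 4 (31.6 CPM, the others 18.3 to 20.5). In PARP1-KO cells, PARP6 was low in untreated replicate 1 (35.3 CPM, the others 50.9 to 53.9) and high in OL9-119 replicate 1 (68.2 CPM, the others 54.0 to 56.4). PARP8 was high in PARP1-KO Tpc + OL9-119 replicate 3 (45.5 CPM, the others 34.2 to 35.3).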

How the results depend on the processing

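Over the 5 comparisons of PARP1-KO with WT cells 12 member values were called, and 10 to 18 were called under the alternatives (10 with only the libraries compared and with the length and GC offsets, 18 without the 8 WT libraries). With each library left out the count was 10 to 13. In WT cells 0 members were called against untreated cells over the 4 treatments, and the count was 1 at an adjusted p below 0.05, 1 with DESeq2 and 3 with the DMSO comparator, and 0 to 0 with each library left out. Counts for PARP1-KO treatments, Tpc + OL9-119 against Tpc and the genotype difference of the responses stayed at 0 under every alternative run. Of the member values recomputed, 3687 kept their side of the threshold, 32 gained a call, 31 lost one and 0 turned direction while called. The replicate block gave 13 calls. Same-numbered libraries did not deviate together in every pair of any comparison (correlations of −0.072 to 0.089 for the genotypes in untreated cells and −0.15 to 0.059 in DMSO). They came nearest for DMSO against untreated WT cells (0.016 to 0.471) and reached 0.379 in 1 pair for Tpc + OL9-119 against Tpc in PARP1-KO cells. The numbers were therefore taken only as names. DEGs over all genes differed by more than 1.5 times with only the libraries compared (1636 against 3592 in DMSO, 2213 against 3386 in untreated cells) and without the 8 WT libraries (4442 against 2463 under Tpc, 4734 against 2827 under OL9-119). For PARP3, PARP10 and PARP12 few counts limit the precision.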

Other observations

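In each of the 5 PARP1-KO groups, replicate 1 had the lowest PARP12 level, with 0, 0, 3, 0 and 1 counts in untreated cells, DMSO, Tpc, OL9-119 and Tpc + OL9-119, the others of a group reaching up to 32 counts. The replicate numbers are names only, and the cause was not tested. Within 500 kb of PARP4, 6 genes were tested in DMSO and 0 were called by edgeR, the lowest adjusted p being 0.0207 (CENPJ). Their median log2 fold change of 0.69 includes C1QTNF9, RNF17 and ENSG00000273167, with mean counts of only 0.6, 1.5 and 0.275 in a library. SPATA13 and CENPJ, with mean counts of 386.4 and 865.2, were both at 0.45. Within 500 kb of PARP16, 20 were tested, with 4 called higher and 2 lower and a median of −0.12. No other member had more neighbours called in either direction. Of all genes in DMSO, 6.67% were called higher and 5.75% lower.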
